A study of Homo sapiens with 4 samples.

Results

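The 4 HOX gene clusters were described by their acetylated anchors and loops in colorectal cancer cell lines. The clusters were taken as fixed hg19 intervals: HOXA at chr7:27120000-27260000 (140 kb), HOXB at chr17:46590000-46820000 (230 kb), HOXC at chr12:54320000-54460000 (140 kb) and HOXD at chr2:176940000-177060000 (120 kb). They stand for 38 genes, namely 10 HOXA genes from HOXA2 to HOXA13, 10 HOXB genes from HOXB1 to HOXB13, 9 HOXC genes from HOXC4 to HOXC13 and 9 HOXD genes from HOXD1 to HOXD13. Every anchor that overlapped an interval by at least 1 bp was kept, whatever its value. This gave 22 of 21770 anchors and 73 of 40696 loops in HCT116, 21 of 22023 anchors and 122 of 74401 loops in LS513, 10 of 9177 anchors and 23 of 7024 loops in SW480, and 15 of 24255 anchors and 91 of 62104 loops in SW620.

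HOX genes encode homeodomain transcription factors that give cells their position along the head to tail axis of the body. Within a cluster the order of the genes on the chromosome follows the order of the body regions in which they act, so that genes of low number act towards the head and genes of high number, such as HOXA13 and HOXD13, towards the tail and in the hindgut. Silent parts of a cluster are commonly held by polycomb repression, which methylates the same residue (lysine 27 of histone H3) whose acetylation marks active promoters and enhancers. The coordinates run upwards from HOXA2 to HOXA13 and from HOXB1 to HOXB13, and from HOXD13 down to HOXD1, in the RefSeq gene order of GRCh38.p14. In HOXC they run from HOXC13 down to HOXC8, followed by HOXC4, HOXC5 and HOXC6, by the lower coordinate of each gene.

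The lines were HCT116, LS513, SW480 and SW620, all established colorectal cancer lines kept untreated, with LS513 labelled as Dukes' type C. SW480 and SW620 are known to come from a primary tumour and a later metastasis of the same patient. H3K27ac HiChIP joins DNA ends that lie close together in fixed nuclei, pulls down the joined fragments on acetylated lysine 27 of histone H3, and counts paired-end tags (PETs) between anchors, which are the segments listed in the deposited tables. PETs that join an anchor with itself (same-anchor PETs) are read here as the level of acetylated, ligated DNA at that anchor, and PETs between 2 anchors with midpoints 5 kb to 2 Mb apart make up the filtered loops. Each line had 1 library and no difference has a replicate check. Every interval is a 95% interval for counting error only.

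Depth differed widely. Filtered loop PETs numbered 81579 for HCT116, 222113 for LS513, 13885 for SW480 and 152421 for SW620, and same-anchor PETs 863012, 1386645, 130508 and 844521 in the same order. Levels are therefore given per 1000000 PETs of the same kind in the library, and a floor of 3 counts, used for a count of 0, was worth 216 loop PETs per 1000000 in SW480 but 13.5 in LS513. No annotation of hg19 was used, so no anchor was assigned to a gene, and markers of colorectal epithelium were not read.

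Promoters are shown for the genes at both ends of HOXA and one between them, since the lines differ along that cluster, and for the start shared by HOXC4 and HOXC5, towards the upper end of HOXC. Each run is the 250 bases before the gene's start, 5′ to 3′ on the gene's strand, from RefSeq on GRCh38.p14, whose coordinates cannot be set beside the hg19 anchors. Capitals mark CG dinucleotides, the sites of DNA methylation. Of the 38 genes, 20 had an entry in the promoter table, too few for a check of base composition over the whole set.
HOXA2, chr7:27102684-27102933, minus strand: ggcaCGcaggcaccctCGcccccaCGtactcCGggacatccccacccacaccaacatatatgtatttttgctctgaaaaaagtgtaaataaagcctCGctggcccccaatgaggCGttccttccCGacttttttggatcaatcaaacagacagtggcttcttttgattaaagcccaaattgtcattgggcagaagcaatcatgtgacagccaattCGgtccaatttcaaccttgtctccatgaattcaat
HOXA9, chr7:27165538-27165787, minus strand: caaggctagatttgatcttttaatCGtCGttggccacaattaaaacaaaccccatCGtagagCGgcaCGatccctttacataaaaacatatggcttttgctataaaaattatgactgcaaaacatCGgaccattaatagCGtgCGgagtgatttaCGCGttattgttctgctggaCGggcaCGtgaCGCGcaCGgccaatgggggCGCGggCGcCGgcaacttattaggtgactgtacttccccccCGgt
HOXA13, chr7:27200092-27200341, minus strand: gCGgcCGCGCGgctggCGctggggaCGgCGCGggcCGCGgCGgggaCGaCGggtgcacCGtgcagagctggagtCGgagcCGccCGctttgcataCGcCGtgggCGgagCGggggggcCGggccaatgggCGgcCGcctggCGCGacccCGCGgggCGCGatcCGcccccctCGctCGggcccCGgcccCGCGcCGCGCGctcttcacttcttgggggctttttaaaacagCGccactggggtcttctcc
HOXC4 and HOXC5, chr12:54016638-54016887, plus strand: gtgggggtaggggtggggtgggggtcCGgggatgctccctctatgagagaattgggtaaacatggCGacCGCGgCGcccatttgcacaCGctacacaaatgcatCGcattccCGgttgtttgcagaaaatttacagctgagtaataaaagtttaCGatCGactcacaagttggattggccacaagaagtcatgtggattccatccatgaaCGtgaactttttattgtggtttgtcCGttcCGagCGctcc
The HOXA13 run, at the highest coordinates of its cluster, held 40 CG dinucleotides, a number that 2.16% of the 35116 promoters in the table reached. HOXA9 had 20, the HOXC4 and HOXC5 start had 14, and HOXA2, at the lowest coordinates, had 8, against a median of 11 over all promoters. The count did not rise steadily along HOXA. HOXA4 had 26, HOXA6 27, HOXA7 28 and HOXA11, next to HOXA13, 11. The 2 starts of HOXA10 had 19 and 24, and those of HOXA3 had 0 to 26.

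The leading HOX cluster differed between lines. HOXA held 89.2% of the same-anchor PETs of the 4 clusters in LS513 and 63.0% in HCT116. In SW480 the leading cluster was HOXC, with 79.7% (106 PETs against 2 at HOXB). With the bounds moved out by 20 kb, HOXB led in SW480 instead, with 159 same-anchor PETs against 106 at HOXC. In SW620 it was HOXB with 41.3%, followed by HOXA with 35.5%. HOXD was the smallest share in HCT116 (6.92%), SW480 (0%) and SW620 (3.28%), and tied with HOXB in LS513 at 2.52%. The 4 clusters together took 0.278% of all same-anchor PETs of LS513, 0.159% of HCT116, 0.102% of SW480 and 0.0650% of SW620. The leading cluster was the same in loop PETs: HOXA took 53.8% of those of the clusters in HCT116 and 83.8% in LS513, HOXC took 86.1% in SW480, and HOXB took 39.9% in SW620.

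**Figure D1:**
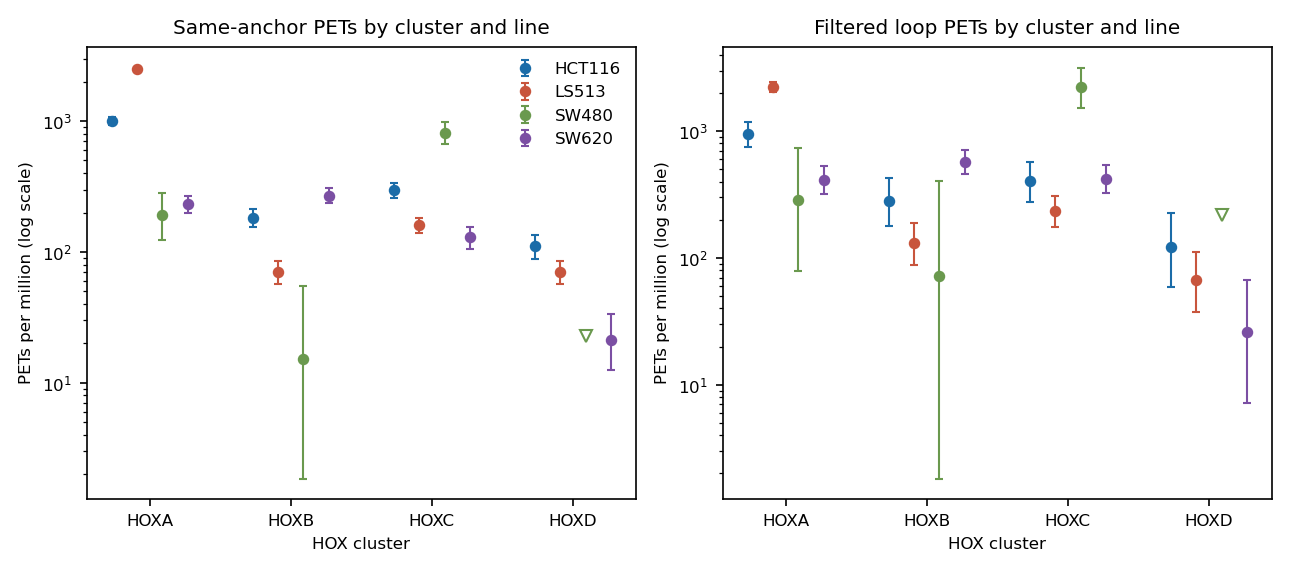
Same-anchor PETs (left) and filtered loop PETs (right) per 1000000 of each library, on log scales, for the 4 HOX clusters in HCT116, LS513, SW480 and SW620. Points are single libraries, bars are exact Poisson 95% intervals, and open triangles mark the floor of 3 counts for a count of 0 (HOXD in SW480). LS513 is highest at HOXA and SW480 at HOXC in both panels, while SW620 is highest at HOXB.

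Lines were compared pair by pair, with a cluster called different where the ratio of its levels was at least 2, the exact interval of the ratio left out 1 and the higher library had at least 10 PETs. By this rule HCT116 and LS513 differed at 2 of 4 clusters in same-anchor PETs, where 20.3% of 150 kb windows of the genome were called, and at 2 of 4 in loop PETs, against 14.8% of windows. HCT116 and SW480 differed at 4 clusters in same-anchor PETs (background 57.9%) and at 2 in loop PETs (35.4%). HCT116 and SW620 differed at 3 clusters in each measure (53.8% and 43.6%).

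LS513 and SW480 differed at 4 clusters in same-anchor PETs (55%) and at 2 in loop PETs (25.8%). LS513 and SW620 differed at 3 (52.5%) and at 2 (48%). SW480 and SW620 differed at 2 clusters in same-anchor PETs (54.3%) and at 2 of the 3 that could be tested in loop PETs (26.8%). Outside the pair of HCT116 and LS513, at least 52.5% of windows met the same-anchor rule, so a count of called clusters there is read only against a large general difference between libraries.

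HOXA carried most of the HOX signal in HCT116 and LS513, and LS513 was highest. HCT116 had 864 same-anchor PETs in the cluster (1001 per 1000000, interval 935.5 to 1070), LS513 had 3439 (2480, 2398 to 2564), SW480 had 25 (192, 124 to 283) and SW620 had 195 (231, 199.6 to 266). LS513 stood above the other lines, HCT116 came second, and SW480 and SW620 overlapped in their intervals. Among 21669 windows of 140 kb elsewhere in the genome, none in LS513 held as many same-anchor PETs as HOXA, and 74 (0.341%) did in HCT116. In SW480 and SW620 the share of windows at or above HOXA was 7.68% and 6.52%.

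The LS513 level was 2.48 times that of HCT116 (2.30 to 2.67), 12.9 times that of SW480 (8.76 to 20.03) and 10.7 times that of SW620 (9.30 to 12.5). HCT116 was in turn 5.23 times SW480 (3.52 to 8.12) and 4.34 times SW620 (3.71 to 5.09). The whole of chromosome 7 also took a larger part of the LS513 library (6.34% of same-anchor PETs) than of HCT116 (4.98%). Scaled to chromosome 7, the ratio of LS513 to HCT116 was 1.95 (1.81 to 2.10), which no longer reached 2, and per kb of anchor HCT116 over SW620 was 1.65, also under 2. At anchors that overlapped one in every other library, which leave out the 45.6 kb anchor described next, LS513 over HCT116 was 0.633 (0.327 to 1.23) and LS513 over SW620 was 0.0778. That setting left 1 anchor each in HCT116 and LS513 but 2 in SW620, and so compared unlike stretches.

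HCT116 and LS513 listed the same 6 HOXA anchors, base for base. Partner anchors outside the clusters, such as chr7:25894340-25899725, chr17:46012078-46050939 and chr12:54670648-54676702, also had identical bounds in these 2 lines. The match is therefore not particular to the HOX clusters, and whether the 2 libraries were given a common anchor list is not known. The largest, chr7:27185415-27231039, spanned 45.6 kb and held 599 PETs in HCT116 and 2488 in LS513. It ranked 1 of 21099 anchors by PETs in LS513 and 21 of 20977 in HCT116. Per kb of its length it had 54.5 PETs in LS513 and ranked 402. The next anchor upwards, chr7:27236006-27253960, held 175 and 779 PETs. Both lie above the other 4 anchors, on the side of HOXA13 in the gene order.

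LS513 exceeded HCT116 at the 3 anchors of highest coordinate. From the lowest coordinate upwards, LS513 over HCT116 was 0.653 (0.337 to 1.27) at chr7:27134513-27140070, 0.346 (0.0910 to 1.15) at chr7:27152135-27157147 and 0.984 (0.662 to 1.48) at chr7:27167352-27172109. These 3 intervals include 1. It was then 2.70 (1.60 to 4.79) at chr7:27177615-27180759, 2.59 (2.36 to 2.83) at the 45.6 kb anchor and 2.77 (2.35 to 3.28) at the highest one. The intervals of these upper 3 anchors did not overlap those of the lower 3, which lie on the HOXA2 side.

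SW480 and SW620 had anchors in other parts of HOXA. SW620 had 3 anchors with 11, 12 and 172 PETs, the largest being chr7:27147239-27178416 (31.2 kb, rank 927 of 22139 by PETs). Nothing was listed in SW620 above it, over the top 81.6 kb, where HCT116 and LS513 had their 2 strongest anchors. SW480 had 4 anchors with 4, 3, 7 and 11 PETs, and none between chr7:27166250 and chr7:27245340. That stretch of 79.1 kb covers the whole of the 45.6 kb anchor of the other pair.

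**Figure D2:**
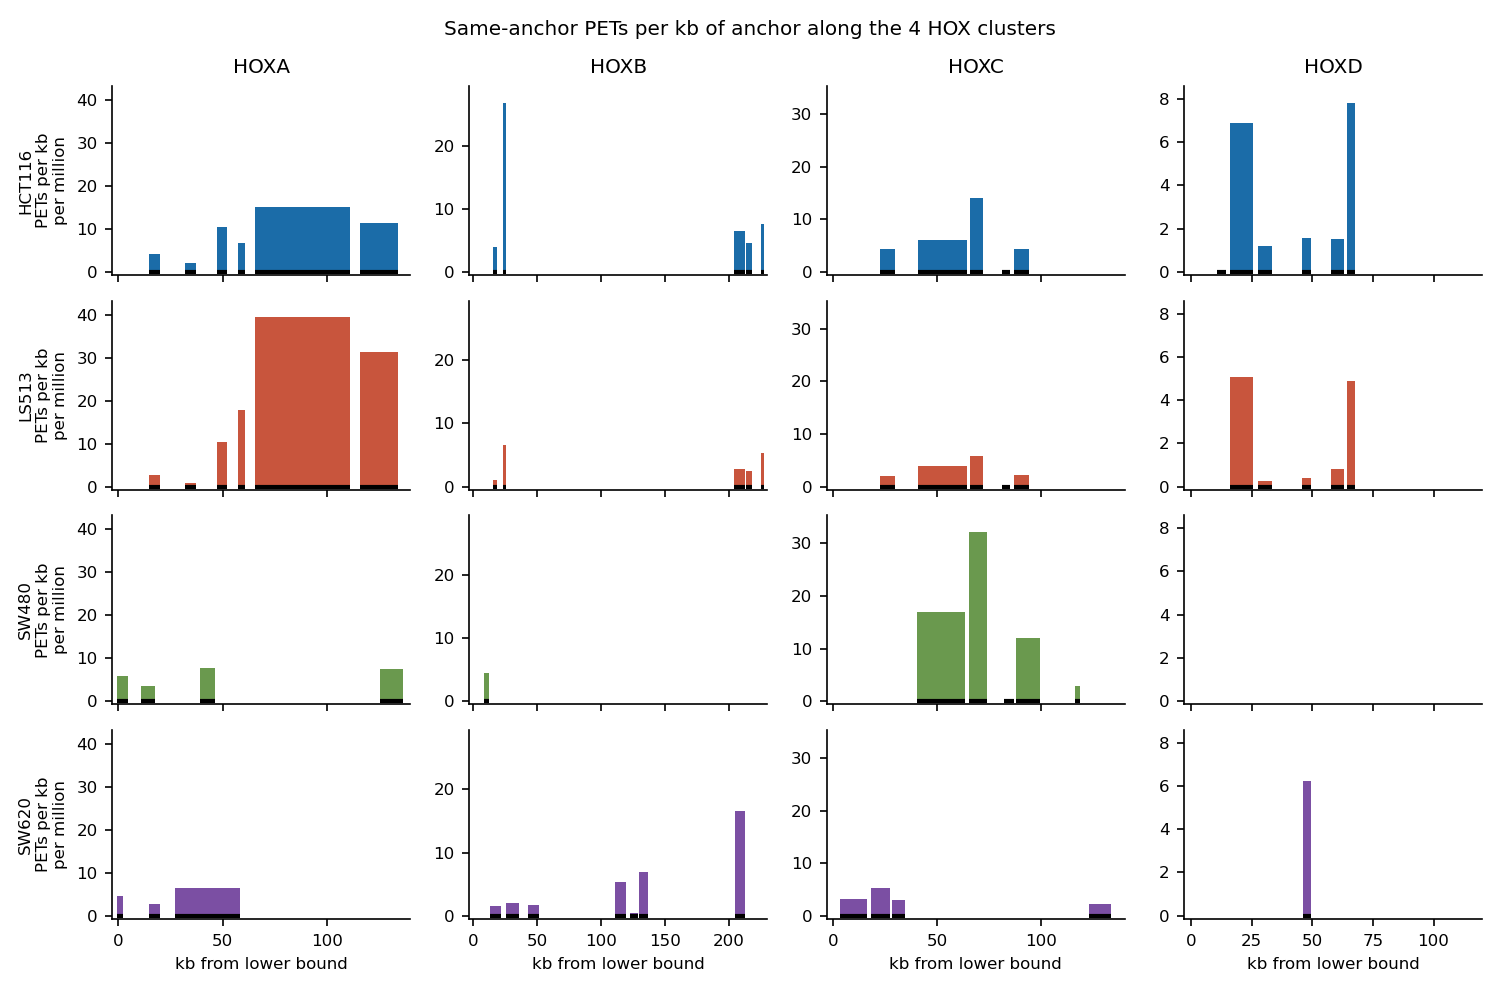
Same-anchor PETs per kb of anchor and per 1000000 same-anchor PETs, along each HOX cluster (columns) in each line (rows), with distance in kb from the lower bound of the cluster. Bars span the anchors and black marks under them show every listed anchor, those with 0 PETs included; the vertical scale is shared within a column. HCT116 and LS513 list 21 anchors with identical bounds, as they also do at partners outside the clusters. SW620 leaves the upper part of HOXA and the middle of HOXC empty, and SW480 has no HOXD anchor.

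**Figure D3:**
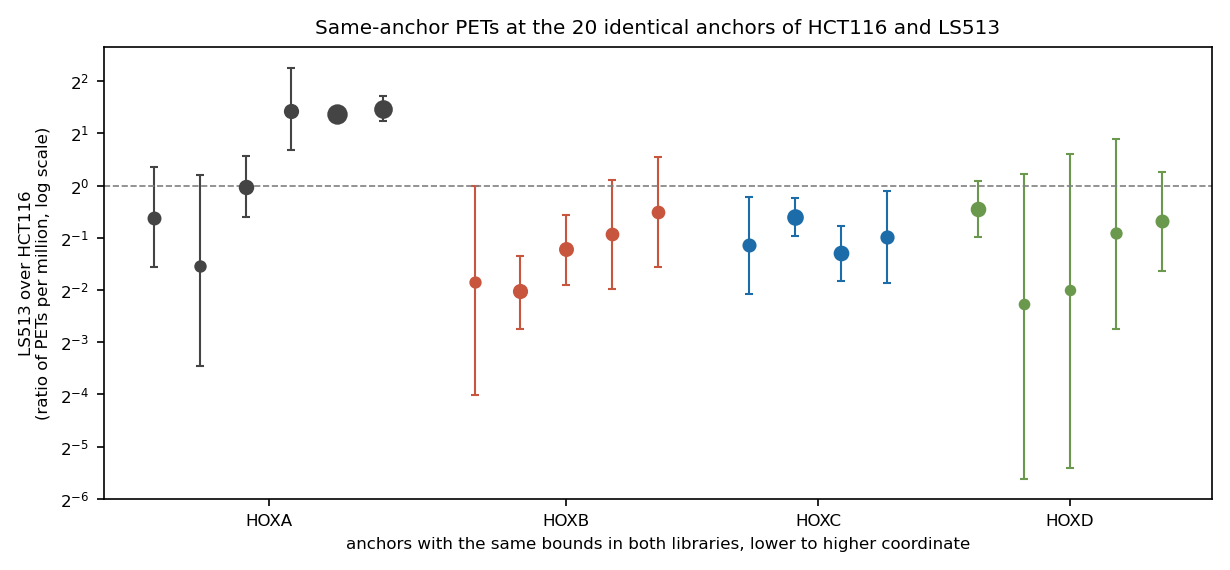
Ratio of LS513 to HCT116 in same-anchor PETs per 1000000 (log scale) at the 20 anchors of the HOX clusters that have the same bounds and hold PETs in both libraries, ordered from lower to higher coordinate within each cluster. Bars are exact conditional 95% intervals and larger points hold more PETs. The upper 3 HOXA anchors lie between 2.59 and 2.77, and the other 17 anchors lie under 1.

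HOXA loops followed the same order of lines. Among loops with an anchor in HOXA, HCT116 had 77 PETs (944 per 1000000, 745 to 1180), LS513 had 498 (2242, 2049 to 2448), SW480 had 4 (288, 78.5 to 738) and SW620 had 63 (413, 318 to 529). LS513 was 2.38 times HCT116 (1.87 to 3.06) and 5.42 times SW620 (4.17 to 7.17). Scaled to chromosome 7 the first of these was 1.95 (1.53 to 2.51), under 2.

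The strongest HOXA loop in both HCT116 and LS513 joined the 45.6 kb anchor to its upper neighbour, chr7:27236006-27253960. It had 20 PETs in HCT116 (245 per 1000000) and 146 in LS513 (657), a ratio of 2.68 (1.67 to 4.52). The second loop in each left the cluster for chr7:25894340-25899725, with midpoints 1311 kb apart. It had 6 PETs in HCT116 and 61 in LS513, and its ratio was 3.73 (1.62 to 10.6). Of the HOXA loops, 25 were found in both lines, 3 in HCT116 alone and 38 in LS513 alone, the deeper library. The share of all loops found in both libraries was not counted, so this split is not read as particular to HOXA.

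The leading HOXA partner of SW620 was also a partner in HCT116 and LS513. This anchor, chr7:26902377-26905981, about 216 kb below the cluster, had the same bounds in HCT116, LS513 and SW620, and its own same-anchor level was 70.7, 92.3 and 111 per 1000000. Loops from it to HOXA held 6 PETs in HCT116 (73.5 per 1000000), 51 in LS513 (230) and 20 in SW620 (131). In SW620 it took 58.8% of the PETs that left the cluster, and it reached the lower anchors that SW620 had. No anchor listed in SW480 overlapped it. A farther partner of the same 3 lines, chr7:26189520-26201410 in SW620, was overlapped by anchors with 2 PETs to HOXA in HCT116, 6 in LS513 and 4 in SW620.

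The direction of loops out of HOXA set SW620 apart. In HCT116, 20 PETs went to lower and 16 to higher coordinates (44.4% higher, 27.9 to 61.9). LS513 had 164 and 94 (36.4%, 30.6 to 42.6), an overlapping interval. The 2 outgoing PETs of SW480 went to higher coordinates (15.8 to 100%). All 34 outgoing PETs of SW620 went to lower coordinates (0% higher, exact interval up to 10.3%). SW620 listed no anchor in the top 81.6 kb of the cluster. The near partner on the upper side, chr7:27273774-27286187, had 6 PETs to HOXA in HCT116 and 45 in LS513, and no anchor listed in SW480 or SW620 overlapped it. Within the cluster, the strongest loop of SW620 joined chr7:27134796-27140070 to chr7:27147239-27178416 with 27 PETs (177 per 1000000), a pair of lower anchors.

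**Figure D4:**
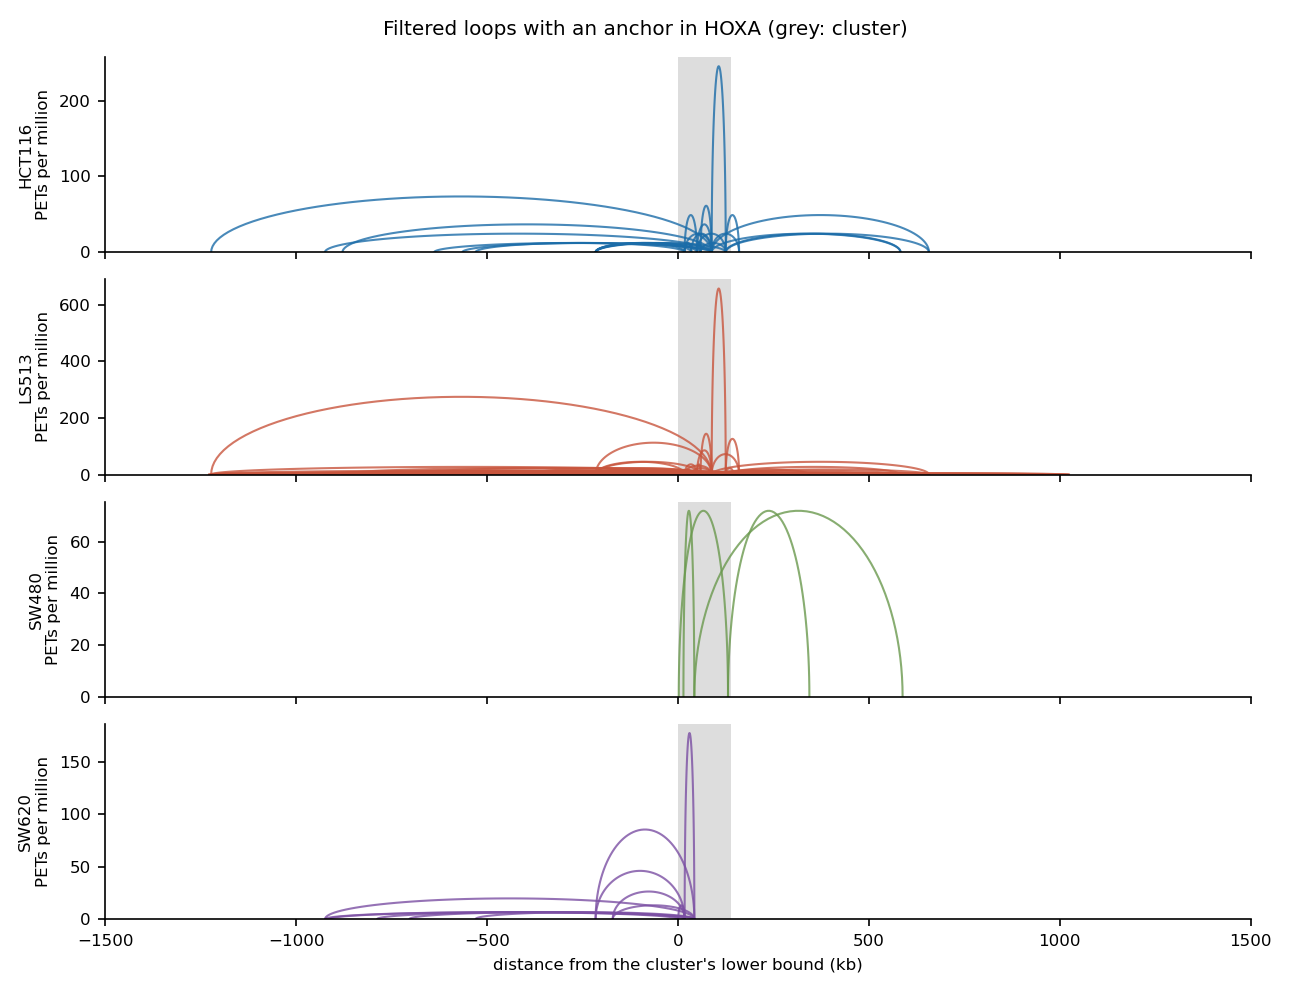
Filtered loops with an anchor in HOXA in each line, drawn as arcs between anchor midpoints, with distance in kb from the lower bound of the cluster and arc height in PETs per 1000000; each row has its own vertical scale. The grey band is the cluster. The tallest arc lies in the upper part of the cluster in HCT116 and LS513 and in the lower part in SW620, whose outgoing arcs all run to lower coordinates; the 4 arcs of SW480 are single PETs.

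HOXB was highest in SW620. Its same-anchor PETs were 227 in SW620 (269 per 1000000, 235 to 306), 158 in HCT116 (183, 156 to 214), 97 in LS513 (70.0, 56.7 to 85.3) and 2 in SW480 (15.3, 1.86 to 55.4). SW620 was 3.84 times LS513 (3.02 to 4.93) and 17.5 times SW480 (4.80 to 146), while its ratio to HCT116 was 1.47 (1.19 to 1.81) and not called. HCT116 was 2.62 times LS513 (2.02 to 3.41). Per kb of anchor, relative to the library mean, SW620 over LS513 was 1.81 and over SW480 2.57 (0.704 to 21.4), both not called.

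Only SW620 had anchors in the middle of HOXB. HCT116 and LS513 listed 5 identical anchors, 2 at the HOXB1 end and 3 at the HOXB13 end, with 178.3 kb between them that held none. At the lower end, chr17:46612953-46615811 had 66 PETs in HCT116 and 26 in LS513, and at the upper end chr17:46794090-46802781 had 48 and 33. SW620 had 7 anchors, with 39 PETs at chr17:46701010-46709709 and 40 at chr17:46719558-46726363 in the stretch that was empty in the other lines. Its strongest was chr17:46794919-46802427 near the upper end, with 105. HOXB13 at that end is a HOX gene known from the prostate and the distal colon.

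SW620 also had most HOXB loops. It had 87 PETs in 48 loops (571 per 1000000), against 23 PETs in 15 loops of HCT116 (282), 29 PETs in 17 loops of LS513 (131) and 1 PET of SW480 (72.0). SW620 was 2.02 times HCT116 (1.27 to 3.36), 4.37 times LS513 (2.84 to 6.91) and 7.93 times SW480 (1.39 to 317). The strongest pair of SW620 loops had 7 PETs each, one joining the 2 middle anchors and the other leaving the upper end for chr17:46867382-46880008. That partner lies 53.7 kb above the cluster, where HCT116 and LS513 also had a partner, with 3 and 10 PETs. Of the 48 SW620 loops, 34 were single PETs. In the column taken as the authors' FDR, 8 of the 48 were under 0.01, and neither loop of 7 PETs was among them.

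The result at HOXB depended on where the cluster was taken to end. A strong region lay just below the lower bound in every line. It held 320 same-anchor PETs in HCT116 and 216 in LS513 at chr17:46557990-46582925, 157 in SW480 at chr17:46539179-46585489 and 332 in SW620 at chr17:46545704-46585489. The levels per 1000000 were 371, 156, 1203 and 393, so SW480 was the highest of the 4 lines there and had 2 PETs inside the cluster. With the bounds moved out by 20 kb, SW480 over SW620 became 1.84 and over HCT116 2.20, and loops of SW620 were 1.80 times those of HCT116 and 0.988 times those of SW480, both no longer called. The SW480 loop call was also lost with loops of at least 2 PETs.

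HOXC led in SW480. SW480 had 106 same-anchor PETs there (812 per 1000000, 665 to 982), HCT116 had 255 (295, 260.3 to 334), LS513 had 222 (160, 139.7 to 183) and SW620 had 109 (129, 106 to 156). SW480 stood above the other 3 with no overlap of intervals, at 2.75 times HCT116 (2.17 to 3.46), 5.07 times LS513 (3.99 to 6.42) and 6.29 times SW620 (4.77 to 8.30). In SW480, 1.20% of windows of the same length held as many PETs or more. Per kb of anchor, relative to the library mean, SW480 over HCT116 was 1.33 and over SW620 1.94, both not called. The SW480 library had 64.9 Mb of anchors in all against 126.6 Mb in HCT116, while its HOXC anchors covered 50.6 kb against 47.9 kb. The whole of chromosome 12 took 7.54% of the same-anchor PETs of SW480, against 5.60% in HCT116 and 4.85% in LS513. Scaled to that chromosome, SW480 was 2.04 times HCT116 (1.61 to 2.57), 3.26 times LS513 (2.56 to 4.13) and 5.03 times SW620 (3.81 to 6.64).

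The HOXC anchors of SW480 lay at nearly the same places as those of HCT116 and LS513. In SW480 the strongest were chr12:54360470-54383554 with 51 PETs, chr12:54385224-54393804 with 36 and chr12:54407657-54419187 with 18. In HCT116 and LS513 the matching anchors were chr12:54361028-54384409 (121 and 128 PETs), chr12:54385535-54392184 (81 and 53) and chr12:54407005-54414238 (27 and 22). These 3 lines thus had HOXC anchors in the middle of the interval, with 82.1% of the PETs of SW480, 89.8% of HCT116 and 91.4% of LS513 in the middle of 3 equal parts, by anchor midpoint.

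SW620 had another layout. Its 4 HOXC anchors were 3 at the HOXC13 end, with 35, 39 and 15 PETs, and 1 at the upper end, chr12:54443021-54453470, with 20. None was listed from chr12:54354604 to chr12:54443020, a stretch of 88.4 kb that covers the strongest anchors of the other 3 lines. No HOXC anchor of SW480 overlapped one of SW620, the line known to come from the same patient. Over the 4 clusters, 3 of the 10 SW480 anchors overlapped an SW620 anchor and 3 of the 15 SW620 anchors overlapped one of SW480, all in HOXA. The share that overlapped over all anchors of the 2 libraries was not counted. These counts are therefore not read as particular to the HOX clusters.

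HOXC loops were also highest in SW480. SW480 had 31 loop PETs (2233 per 1000000, 1517 to 3169), HCT116 had 33 (405, 278 to 568), LS513 had 52 (234, 175 to 307) and SW620 had 64 (420, 323 to 536). SW480 was 5.52 times HCT116 (3.27 to 9.30), 9.54 times LS513 (5.91 to 15.2) and 5.32 times SW620 (3.35 to 8.29). Chromosome 12 took 9.25% of its filtered PETs, while HCT116 had 6.02% there, LS513 had 4.85% and SW620 had 6.44%. Scaled to the chromosome these ratios were 3.59 (2.13 to 6.05), 4.99 (3.09 to 7.94) and 3.70 (2.33 to 5.77). Its strongest loop joined its 2 strongest anchors with 12 PETs (864 per 1000000), where the matching loop had 5 PETs in HCT116 (61.3) and 9 in LS513 (40.5). In SW480, 15 of the 18 HOXC loops were single PETs.

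In SW620 the HOXC loops ran below the cluster instead. Of 57 PETs that left it, 49 went to lower coordinates, and 22 of them ended at chr12:54209023-54225733, about 103 kb away. No anchor listed in HCT116 or LS513 overlapped that partner. In SW480 it was overlapped by anchors with 4 PETs to HOXC, 2 of them at chr12:54210810-54213644. Scaled per 1000000 loop PETs, this partner had 144 in SW620 and 288 in SW480. SW480 was thus not lower there, though its level rests on 4 PETs. The 2 leading SW620 loops there started at the HOXC13 end, with 11 and 9 PETs.

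**Figure D5:**
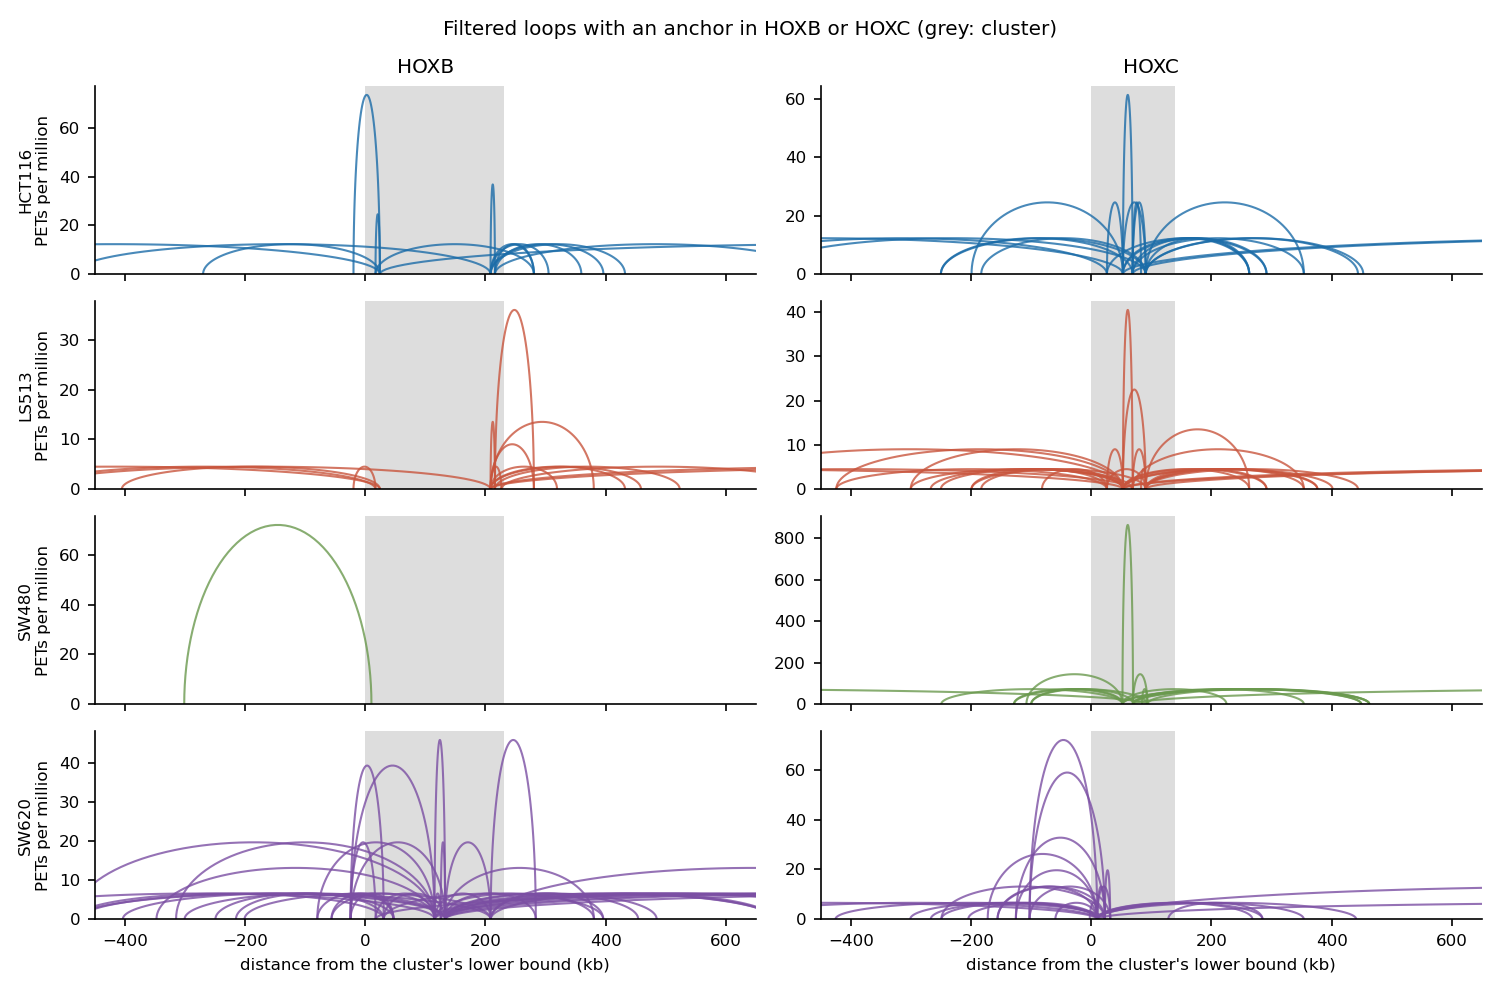
Filtered loops with an anchor in HOXB (left) or HOXC (right) in each line, as arcs between anchor midpoints with height in PETs per 1000000 and distance in kb from the lower bound of the cluster; each panel has its own vertical scale. The grey band is the cluster. SW620 has arcs from the middle of HOXB and from the lower end of HOXC, and the tallest HOXC arc of SW480 joins its 2 strongest anchors at 864 PETs per 1000000.

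HOXD held the fewest same-anchor PETs of the clusters in HCT116, SW480 and SW620 and as few as HOXB in LS513. HCT116 had 95 same-anchor PETs (110 per 1000000, 89.1 to 135), LS513 had 97 (70.0, 56.7 to 85.3), SW620 had 18 (21.3, 12.6 to 33.7) and SW480 had 0. Against the floor of 3 counts (22.99 per 1000000), HCT116 was at least 4.79-fold and LS513 at least 3.04-fold higher than SW480. The exact 95% upper limit for the count of 0 was higher, at 28.3 per 1000000, within the interval of SW620. HCT116 was 5.16 times SW620 (3.10 to 9.09). LS513 was 3.28 times SW620 (1.97 to 5.77). Per kb of anchor, relative to the library mean, both ratios reversed, to 0.451 and 0.328. SW620 had a single anchor of 3.42 kb there, against 31.1 kb of HOXD anchors in HCT116. Windows of the same length at or above HOXD made up 11.5% in HCT116, 15.2% in LS513 and 24.8% in SW620.

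The HOXD anchors of HCT116 and LS513 lay in the lower part of the interval, towards HOXD13. The strongest, chr2:176956113-176965514, had 56 and 66 PETs, and chr2:177004276-177007387 had 21 in each. Above it, over 52.6 kb towards the upper bound, neither line had an anchor. The only SW620 anchor, chr2:176986027-176989446, had 18 PETs and ended at the same base as one that HCT116 and LS513 listed with 5 and 2. HOXD loop PETs were 15 in LS513, 10 in HCT116, 4 in SW620 and 0 in SW480, with at most 5 PETs in 1 loop. HCT116 was 4.67 times SW620 (1.35 to 20.4) on those counts, and with loops of at least 2 PETs it had 6 PETs against 2 and was not called. Nor was it called with a minimum of 20 PETs.

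Loops stayed inside a cluster to differing extents, and the counts behind many shares were small. The share of HOXA loop PETs that stayed within the cluster was 53.2% for HCT116 (41.5 to 64.7), 48.2% for LS513 (43.7 to 52.7), 50% for SW480 (6.76 to 93.2) and 46.0% for SW620 (33.4 to 59.1). These intervals all overlapped. HOXC kept 39.4% in HCT116, 38.5% in LS513 and 48.4% in SW480, but 10.9% in SW620 (4.51 to 21.2), whose interval lay below those of the other 3. HOXB kept 21.7% in HCT116 (7.46 to 43.7), 13.8% in LS513 (3.89 to 31.7) and 19.5% in SW620 (11.8 to 29.4), and the 1 PET of SW480 left it. The HOXA and HOXB intervals of HCT116 overlapped. HOXD kept 6 of 10 PETs in HCT116, 6 of 15 in LS513 and 0 of 4 in SW620. Pooled over clusters the share was 24.3% for SW620 (18.8 to 30.6), against 45.5% for HCT116 (37.1 to 54.0), 45.5% for LS513 (41.4 to 49.6) and 47.2% for SW480 (30.4 to 64.5). The pooled shares mix clusters in unlike proportions, since HOXA held 83.8% of the HOX loop PETs of LS513 and 28.9% of those of SW620. With loops of at least 2 PETs the SW480 share was 87.5%, of 16 PETs.

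No PET joined 2 different HOX clusters in any of the 4 libraries, among 30620, 66606, 3988 and 56541 interchromosomal PETs. Few of these had a HOX end at all. LS513, the deepest library, had 170 at HOXA, 10 at HOXB, 29 at HOXC and 9 at HOXD. With so few, a count of 0 cannot show an absence of contact between clusters. Interchromosomal PETs with an end in HOXA numbered 40 for HCT116, 170 for LS513, 4 for SW480 and 34 for SW620. Per 1000000 interchromosomal PETs these were 1306 (933 to 1779), 2552 (2183 to 2966), 1003 (273 to 2568) and 601 (416 to 840). In LS513 they reached 21 other chromosomes, each anchor pair with a single PET. The most that any interchromosomal pair with a HOX end held was 2 PETs, at HOXB in SW620. HOXA thus had its highest interchromosomal level in LS513, the line with its highest same-anchor level, though the wide interval of SW480 overlapped that of LS513. The LS513 PETs were spread over many partners.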

How the data were processed

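H3K27ac HiChIP libraries of 4 untreated colorectal cancer lines (1 each) were compared. Fixation was in 1% formaldehyde (10 minutes) with a glycine quench (0.125 M), followed by MboI digestion, biotin fill-in, ligation, H3K27ac precipitation and tagmentation, per the labels' protocols. The submitters' processing notes name HiC-Pro and hg19 (GRCh37). For the tool's version, the loop caller and the anchors, the origin is not given in the sources used here.

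For every anchor pair the authors deposited a PET count, in tables of same-chromosome, filtered and interchromosomal pairs. A last deposited column, without header, was taken to hold FDR-adjusted p-values of the authors. Under 0.01 in it were 10 of the 73 HOX loops of HCT116 and 36 of 122 in LS513. In SW480 these were 2 of 23 and in SW620 25 of 91. The share over all loops of each library is not given here.

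Anchors overlapping a cluster by at least 1 bp were taken, on chromosomes 1 to 22 and X. Same-anchor and filtered loop PETs were each scaled per 1000000 of the library. Levels have exact Poisson, shares exact Clopper-Pearson and ratios exact conditional intervals at 95%. PETs carry no molecular identifiers, so intervals cover counting error only. A difference was called at a ratio of at least 2 with its interval off 1 and at least 10 PETs in the higher library. A count of 0 was set to 3 counts for a fold. The same rule was applied to 150 kb windows of the genome as background. Calls were first tried on simulated Poisson counts with set changes and otherwise equal rates. These lack the general difference between libraries seen here, so they give no rate of false calls for these data.

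Anchors are given 1-based in hg19. The gene table follows GRCh38.p14, so it gave names and gene order only. The lists of cofactors, polycomb genes, non-coding RNAs and cell type markers that were planned were not run. For each cluster and line the text names the 3 anchors and 3 loops with most PETs where they bear on a comparison, and others by position; the anchors just below HOXB were chosen after their values were seen. The clusters, genes and lists were chosen with earlier results of these data known. Alternatives covered scaling, loop filters, bounds, anchor rules, fold and minimum count. Spreading PETs over an anchor and leaving out SW480, the shallowest library, were added after seeing the data. The scripts ran in Python 3.11.15 with scipy 1.17.1, pandas 2.3.3, numpy 2.4.6 and, for figures, matplotlib 3.10.9.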

Additional observations from a re-analysis of the deposited data

How the results depend on the processing

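The main rule called 18 of 24 same-anchor and 13 of 24 loop comparisons (6 pairs of lines at 4 clusters). Among the latter, HOXD in SW480 against SW620 could not be tested. By the same rule 20.3 to 57.9% of 150 kb windows were called in same-anchor PETs, by pair, and 14.8 to 48% in loop PETs. The other settings have no such background, so their counts are set only against the main count. Per kb of anchor, relative to the library mean, same-anchor calls were 10 of the 21 that could be tested. At anchors overlapping in all 4 libraries they were 3 of 6, and loop calls were 3 of 3. Leaving out SW480 left 8 of 12 same-anchor and 7 of 12 loop calls; here fewer pairs were compared. The other settings gave 17 to 20 same-anchor and 11 to 15 loop calls.

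At anchors overlapping in all 4 libraries, same-anchor ratios at HOXA reversed, to 1.58 for HCT116 over LS513, 0.123 for HCT116 over SW620 and 0.0778 for LS513 over SW620, and so did loop ratios, with 0 PETs set to the floor of 3, to at most 0.196 for HCT116 over SW620 and 0.0728 for LS513 over SW620 (31 PETs in SW620). This setting keeps 1 HOXA anchor each in HCT116 and LS513 and 2 in SW620, the 31.2 kb one among them, so unlike stretches are compared. Bounds moved out by 20 kb take in the strong region below HOXB: same-anchor ratios became 0.455 for HCT116 over SW480, 0.185 for LS513 over SW480 and 1.84 for SW480 over SW620, and the loop ratio of SW480 over SW620 became 1.01. Per kb of anchor, relative to the library mean, HOXD reversed to 0.451 for HCT116 over SW620 and 0.328 for LS513 over SW620.

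The pooled share of loop PETs within a cluster moved with loops of at least 2 PETs, to 60.6% in HCT116, 50% in LS513 and 87.5% in SW480. With all same-chromosome pairs it was 36.9% in HCT116 and 39.0% in LS513, and with wider bounds 51.3% in LS513. The cause was not tested. Of the ratios under an alternative, 263 kept their direction and side of the rule, 18 lost and 10 gained a call, 11 reversed and 5 changed direction without a call in the main setting. Of the 263, 40 came from a fold of 1.5 and 43 from a minimum of 20 PETs, which change the rule but no ratio. A further 44 came from requiring the anchor midpoint in the cluster. Per kb of anchor, 9 were kept. At anchors overlapping in all 4 libraries, 5 reversed, 2 lost and 2 gained a call. SW480 had 0 to 25 same-anchor PETs in each cluster outside HOXC, which limits every ratio with it there.

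No paired analysis was possible because each line had 1 library.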
